A study of Mus musculus with 10 samples.

Results

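In mouse gene nomenclature the ending os marks an opposite-strand transcript, an RNA read from the strand opposite to a named gene. The 280 identifiers described here are the autosomal genes whose symbol is a gene name of at least 3 characters followed by os, os1, os2 or os3, out of 38293 identifiers in the files. Symbols starting with Hox, Igf2os and Dio3os were left out by the rule, and 7 symbols in which the letters os belong to a longer name were not counted as members. The members lie on 19 chromosomes, and the annotation classes 247 of them as antisense RNA and 10 as protein-coding. They name 240 partner genes, of which 31 have 2 or 3 members, 71 members in all.

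Strand-specific RNA-seq was made from mouse embryonic fibroblasts (MEF) in culture and from whole lung. Wild-type MEF carried the C57BL/6J background and were left untreated (n = 2) or given CBL0137 at 1 µM for 24 hr (n = 2), and MEF lacking p53 (Trp53-/-, allele Trp53tm1Tyj) came as 1 untreated library and 1 library with the same dose and time. Lungs came from NIH Swiss mice aged 7 weeks that had received vehicle, 5% dextrose, intravenously (n = 2) or CBL0137 at 60 mg/kg (n = 2) 24 hr earlier. The sample labels and the series' design text give these mice opposite sexes. CBL0137 is a small molecule that binds DNA, opens nucleosomes and traps the histone chaperone FACT. The study's methods call the replicates biological, while the labels do not say which culture each MEF library came from. Tissue differs from MEF also in strain, age and culture, and these cannot be told apart.

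Many mammalian genes have an antisense transcript that shares exon sequence with them in reverse, and some of these RNAs act on the partner's chromatin or messenger RNA. A strand-specific library records which strand each read came from, so that a gene and its antisense RNA can be counted apart. If the strand is read the wrong way round, reads of the messenger RNA are listed under the antisense identifier wherever the exons overlap. Only 0.789% to 1.16% of reads were counted on genes in these files, 16579 to 538717 counts per library, and 98.84% to 99.21% were listed as lying on no feature. Vehicle lung library 2 was by far the shallowest, with 16579 counts on genes against 67587 to 538717 in the other 9, so that 1 count there equals 60.3 counts per 1000000 gene counts (CPM). Fibroblast markers (Col1a1, Col1a2, Col3a1, Fn1) had most of their few counts in MEF and lung markers (Sftpc, Scgb1a1, Ager) in lung, as labelled. Summed over 8 fibroblast markers the level was 204 to 917 CPM in wild-type MEF and 27.6 to 181 CPM in lung, and over 6 lung epithelial markers 0 to 14.6 CPM in wild-type MEF and 398 to 724 CPM in lung. In Trp53-/- MEF the fibroblast sum was 267 CPM untreated and 130 CPM treated, the latter within the lung range. The epithelial sum there was 23.2 CPM untreated and 16.7 CPM treated. Trp53 itself had 6 counts in all, 5 of them in the treated Trp53-/- library and 0 in all 4 wild-type MEF libraries, and at this level it checks no genotype.

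The sequence that such a count can come from is shown for Prss23os and Hopxos. Among the 25 members tested between vehicle lung and untreated wild-type MEF, these had the largest fold changes. In each pair below the capitals of the first line are the bases of the opposite-strand transcript that face coding sequence of the partner, ending with the reversed start codon, and the capitals of the second line are that start codon on the partner's strand. Letters and positions are those of GENCODE vM21 on GRCm38, and both stretches are written 5′ to 3′. Prss23os lies on the plus strand at chr7:89510800-89510870 in this stretch and Prss23 on the minus strand at chr7:89510800-89510859. The Hopxos stretch is chr5:77094950-77095020 on the plus strand and that of Hopx chr5:77094950-77095009 on the minus strand.
Prss23os: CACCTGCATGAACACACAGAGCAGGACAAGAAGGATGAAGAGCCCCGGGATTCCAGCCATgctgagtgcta
Prss23: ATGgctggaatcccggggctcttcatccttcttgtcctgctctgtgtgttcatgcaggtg
Hopxos: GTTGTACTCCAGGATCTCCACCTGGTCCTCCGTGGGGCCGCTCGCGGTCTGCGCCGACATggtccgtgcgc
Hopx: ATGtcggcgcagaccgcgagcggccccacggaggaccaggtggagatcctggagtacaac

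The 60 capitals of each first line are the exact reverse complement of the second line, and the coding overlap is 853 bases for Prss23os and 144 bases for Hopxos. A read of either messenger RNA placed on the wrong strand would fall in exon sequence of the os transcript here.

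The members together held 30526 counts over the 10 libraries. Prss23os alone took 53% of them, and the 15 members of highest mean CPM took 79.4%. Of the 280 members, 218 had at least 1 count, 123 at least 10 and 33 at least 100. The members' share of all gene counts was 1.71% in each untreated wild-type MEF library, 2.08% and 2.21% in treated wild-type MEF, 1.28% in untreated and 1.65% in treated Trp53-/- MEF, and 0.814% to 1.08% in the 4 lung libraries. Without Prss23os the shares were 0.531% to 0.711% in MEF and 0.72% to 0.902% in lung, so that the order of MEF and lung turned.

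**Figure D1:**
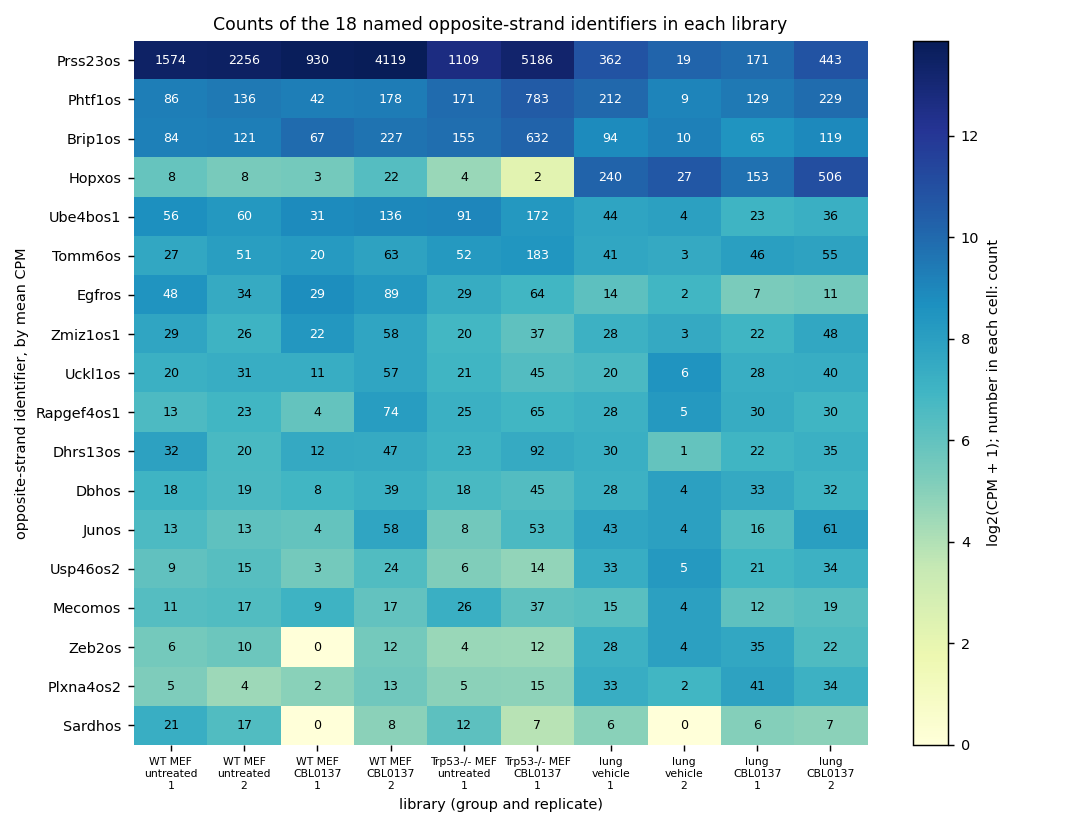
Counts of the 18 named members (rows, by mean CPM) in the 10 libraries (columns, by group and replicate). Colour is log2(CPM + 1) and the number in each cell is the count. Prss23os is the darkest row in all 6 MEF libraries with 930 to 5186 counts, and Hopxos has 2 to 22 counts in MEF against 27 to 506 in lung.

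The count of a member varied with what the annotation places opposite to it. Of the members, 153 shared at least 1 exon base with their partner, 77 reached only its introns and 49 did not touch it. The partner of 1 was not matched. Some of the 77 lie mostly outside the partner, as Pax6os1 with 95 of its 1619 exon bases in it. Levels per length are counts per kb of the member's own exons over the 10 libraries. The median was 10.3 for members facing a partner exon, 2.92 for those reaching introns only and 0.62 for those outside the partner. At least 1 count was found for 88.9%, 67.5% and 59.2% of them. For the 118 members that face at least 100 bases of partner exon the median was 12.6 counts per kb. Over all members the median was 4.65 counts per kb, and 22.1% had no count at all, against 47.5% of the other identifiers. These are descriptions of annotation classes, which also differ in length and in how strongly their partners are transcribed.

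Over the 278 members whose partner is in the files, 131 had more counts than the partner listed under its own symbol and 126 had fewer. Members facing a partner exon were above it in 90 cases and below in 56. The numbers were 27 and 40 for those reaching introns only, and 14 and 30 for those outside the partner. Among the 33 members with at least 100 counts, a choice that itself favours the member, 29 were above. Prss23os had 16169 counts and Prss23 21, Hopxos 973 and Hopx 21, and Tomm6os 541 and Tomm6 3. The 4 exceptions were Zeb2os (133 against 148), Fbxl12os (145 against 326), Runx2os2 (112 against 124) and Cebpzos (104 against 165). At the other end, Far2os1 and Far2os2 had 1 and 0 counts while Far2 had 3529, and Pax6os1 had 0 while Pax6 had 909. These last 3, like the 4 exceptions, were singled out after their values were seen.

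**Figure D2:**
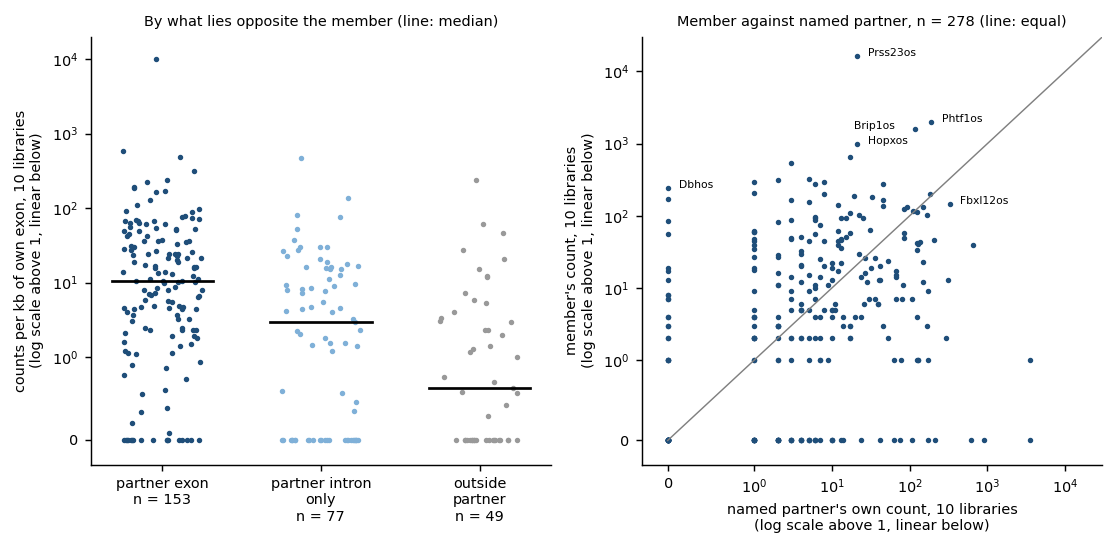
Left, counts per kb of own exon summed over 10 libraries for each member (points), by whether it faces a partner exon (n = 153), a partner intron only (n = 77) or neither (n = 49), with medians of 10.3, 2.92 and 0.62 as lines. Right, each member's count against the count listed under its partner (n = 278), with the line of equality. Both scales are logarithmic above 1 and linear below. Most members with at least 100 counts lie above the line, Prss23os with 16169 counts against 21.

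A symbol does not always name the gene that a member faces most. Phtf1os (chr3:103964536-103968581, minus strand) faces 448 exon bases of Phtf1, a putative homeodomain protein, but 2101 exon bases of Rsbn1. Brip1os (chr11:86201370-86304443, plus strand) shares no base with Brip1, a DNA helicase that works with BRCA1, and instead faces 800 exon bases of Med13, of the Mediator kinase module, and 512 of Ints2, a subunit of the Integrator complex. Tomm6os faces 219 bases of Tomm6, a small subunit of the mitochondrial outer membrane translocase, and 1221 of Prickle4, and it also shares exon sequence on its own strand with Frs3. Dhrs13os faces 386 exon bases of Dhrs13 and 528 of Phf12. Uckl1os faces its named partner most, with 459 exon bases of Uckl1, but also 263 of Zfp512b. For these members the count cannot be assigned to the partner in the name. Egfros, Rapgef4os1 and Plxna4os2 lie wholly in introns of their partners, so that a read of the partner there would have to come from unspliced RNA. Dbhos (chr2:27144898-27162703) faces no annotated gene, and yet it had 244 counts over the 10 libraries, with Dbh, the enzyme that makes noradrenaline, at 0.

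Vehicle lung was compared with untreated wild-type MEF to ask which members separate the tissue from the cells. Hopxos was higher in lung and Prss23os lower, each by a large margin, and 6 further members of lower count passed the test. edgeR's quasi-likelihood test was fitted to all identifiers that passed a filter on low counts, with Benjamini-Hochberg adjustment. Only 25 of the 280 members passed the filter, and 8 of these were called at an adjusted p under 0.05, 5 higher and 3 lower in lung. That is 32% of the members tested, against 37.9% of all 1852 identifiers tested (19.7% higher and 18.1% lower), and the members thus did not stand out. The median log2 fold change of the members tested was -0.17, and that of all identifiers 0.03. Hopxos, Plxna4os2 and Zeb2os passed the filter through their vehicle lung values alone, and Sardhos through its MEF values alone. These are the groups where each was high, so that their calls are no independent support.

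Hopx is a small homeodomain protein that binds no DNA itself and marks alveolar type I cells in the adult lung. Hopxos (chr5:77094532-77102303) had 58.3 and 41.7 CPM in untreated wild-type MEF and 1200 and 1630 CPM in vehicle lung. The groups were far apart (log2 fold change 4.66, standard error 0.31, edgeR adjusted p = 2.004e-10). Treated lung had 845 and 2070 CPM, treated wild-type MEF 44.4 and 80.2 CPM, and Trp53-/- MEF 23.2 CPM untreated and 3.71 CPM treated. Every lung library was thus at least at 845 CPM and every MEF library at most at 80.2 CPM. Over all conditions pooled, the 926 counts of the 4 lung libraries against 47 of the 6 MEF libraries gave a ratio of 42.4 (95% counting interval 31.6 to 58.1). Fewer cells of a type and less RNA per cell cannot be told apart in such bulk samples.

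Prss23 is a secreted serine protease. Prss23os (chr7:89510007-89511873) had 11500 and 11800 CPM in untreated wild-type MEF and 1800 and 1150 CPM in vehicle lung. Its log2 fold change was -2.88 (standard error 0.25, edgeR adjusted p = 1.015e-08). Treated wild-type MEF had 13800 and 15000 CPM, treated lung 945 and 1820 CPM, and Trp53-/- MEF 6430 CPM untreated and 9630 CPM treated. The 6 MEF libraries and the 4 lung libraries did not overlap. Per length Prss23os also stood first among all members, with 10160 counts per kb of exon, and Hopxos followed with 586.

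**Figure D3:**
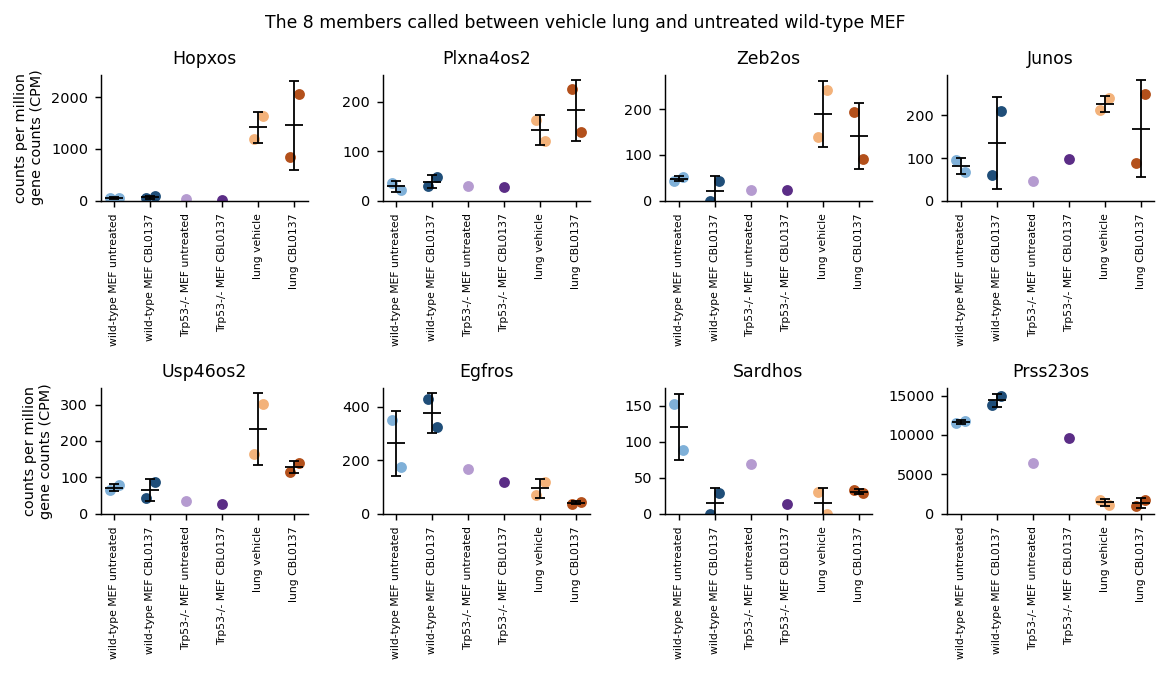
CPM of the 8 members called between vehicle lung and untreated wild-type MEF, in every library (points) of the 6 groups. Bars are mean and SD where a group has 2 libraries. Hopxos is at 1200 and 1630 CPM in vehicle lung against 58.3 and 41.7 in untreated wild-type MEF, and Prss23os at 1800 and 1150 against 11500 and 11800.

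Plxna4 encodes a plexin, a receptor for semaphorins that guide axons. Plxna4os2, in its introns, had 36.5 and 20.8 CPM in untreated wild-type MEF and 164 and 121 CPM in vehicle lung (log2 fold change 2.46, standard error 0.57, edgeR adjusted p = 0.001682). The 121 CPM come from the shallow library, where 3 counts equal 181 CPM, and stand for fewer than 3 counts. Treated lung was at 226 and 139 CPM, and the other 4 MEF libraries at 27.8 to 47.4 CPM, so that lung and MEF did not overlap. Its neighbour Plxna4os1 had 31 counts in the 4 lung libraries and 14 in the 6 MEF libraries, a ratio of CPM of 4.76 (counting interval 2.46 to 9.69).

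Jun is a subunit of the transcription factor AP-1, and Zeb2 a zinc-finger repressor active in mesenchymal and myeloid cells. Junos, which faces 232 exon bases of Jun outside its coding sequence, had 94.8 and 67.7 CPM in untreated wild-type MEF and 214 and 241 CPM in vehicle lung (log2 fold change 1.42, standard error 0.43, edgeR adjusted p = 0.01294). Treated lung spread from 88.4 to 250 CPM and treated wild-type MEF from 59.2 to 211 CPM, so that the separation did not extend to the treated libraries. Zeb2os, which faces 653 exon bases of Zeb2, had 43.7 and 52.1 CPM in untreated wild-type MEF and 139 and 241 CPM in vehicle lung (log2 fold change 1.63, standard error 0.53, edgeR adjusted p = 0.0189). Its treated libraries were at 193 and 90.2 CPM in lung and 0 and 43.7 CPM in wild-type MEF. The 241 CPM of Junos and of Zeb2os come from the shallow library, where 1 count equals 60.3 CPM, and rest on few counts.

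Usp46 is a deubiquitinase. Usp46os2 (chr5:74032268-74040003) faces 214 coding bases of it and had 65.6 and 78.1 CPM in untreated wild-type MEF and 164 and 302 CPM in vehicle lung (log2 fold change 1.31, standard error 0.48, edgeR adjusted p = 0.0341). The 302 CPM stand for only 5 counts in the shallow library.

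Egfr is the receptor of epidermal growth factor. Egfros (chr11:16815431-16830702) lies in its introns and had 350 and 177 CPM in untreated wild-type MEF and 69.7 and 121 CPM in vehicle lung (log2 fold change -1.77, standard error 0.49, edgeR adjusted p = 0.006732). The 121 CPM of the shallow library stand for fewer than 3 counts, since 3 counts equal 181 CPM there. Treated lung was lower still in value, at 38.7 and 45.1 CPM, and treated wild-type MEF at 429 and 324 CPM. Sardh is a mitochondrial enzyme that breaks down sarcosine. Sardhos (chr2:27189382-27234710) has only 265 exon bases, of which 188 face Sardh. It had 21 and 17 counts in untreated wild-type MEF against 6 and 0 in vehicle lung (log2 fold change -2.08, standard error 0.66, edgeR adjusted p = 0.01641). Over all conditions pooled, Sardhos had 19 counts in the 4 lung libraries and 65 in the 6 MEF libraries. That ratio of lung to MEF was 0.629, with a counting interval (0.356 to 1.06) that included 1.

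Of the other 6 calls, 5 were lost when single libraries were left out. Without vehicle lung library 1, which leaves the shallow one alone in its group, 2 members were called, Hopxos and Prss23os, and DESeq2 also called these 2 and no other member. In that fit Egfros, Junos, Sardhos, Usp46os2 and Zeb2os had edgeR adjusted p of 0.1957 to 0.552, and Sardhos, then with 0 counts in lung, a fitted log2 fold change of -6.79 that is no measure of size. The same 5 lost the call without untreated wild-type MEF library 1 (edgeR adjusted p 0.09303 to 0.2685). Junos, Usp46os2 and Zeb2os lost it without untreated library 2 (0.09256 to 0.2376), and Usp46os2 and Zeb2os without the shallow lung library (0.08776 and 0.05587), where 9 members were called in all. Plxna4os2 kept its call in the 3 of these fits in which it passed the filter (edgeR adjusted p 0.009717 to 0.04199), and lost it with DESeq2. Hopxos and Prss23os kept their call under all 9 alternatives, with log2 fold changes of 4.31 to 5.01 and -3.51 to -2.65.

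The remaining abundant members did not separate lung from MEF by this test. Phtf1os had 627 and 708 CPM in untreated wild-type MEF and 1060 and 543 CPM in vehicle lung (log2 fold change 0.49, edgeR adjusted p = 0.1099). Brip1os had 612 and 630 CPM against 468 and 603 CPM (-0.37, edgeR adjusted p = 0.236). Ube4b adds ubiquitin chains to proteins, and Ube4bos1, which faces 452 of its coding bases, had 408 and 313 CPM against 219 and 241 CPM (-0.70, edgeR adjusted p = 0.1012). For Tomm6os, Zmiz1os1, Uckl1os, Rapgef4os1, Dhrs13os, Dbhos and Mecomos the 2 groups had mean levels of 84.4 to 231 CPM in MEF and 105 to 231 CPM in lung, with log2 fold changes between -0.25 and 0.55. None of these passed the test, which does not show that their levels were equal.

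Some members that did not pass the filter of the tissue comparison had most of their counts in lung. Without the filter, and with all 10 libraries in the fit, edgeR called Arhgap27os2, Gimap1os, Kank4os, Rapgef4os2 and Tmcc3os in that comparison. DESeq2, run without this filter, called none of them. Such members enter a fit mainly through their lung counts, so that the calls are no independent support. Gimap1 belongs to a family of GTPases of lymphocytes. Gimap1os, which faces 1107 exon bases of it, had 0 counts in all 6 MEF libraries and 16 and 1 in vehicle lung and 9 and 36 in treated lung. Its level in lung was at least 44.5-fold higher when MEF are set at 3 counts over the 6 libraries together, and the counting interval of the ratio starts at 35.1. Rapgef4os2 and Rapgef4os3 lie opposite Rapgef4, a cAMP-activated exchange factor for the GTPase Rap. Rapgef4os2 had 57 counts in lung and 3 in MEF, a ratio of CPM of 40.9 (counting interval 13.3 to 204), and Rapgef4os3 had 38 and 1, a ratio of 81.8 (13.8 to 3310). Kank4os had 34 counts in lung and 1 in MEF (ratio 73.2, 12.3 to 2970). Adap2os had 53 and 8 (ratio 14.3, 6.73 to 34.7), Tmcc3os 71 and 17 (8.99, 5.24 to 16.3), and Spag17os, opposite a protein of motile cilia, 18 and 2 (19.4, 4.64 to 172). These ratios pool treatments and genotypes, and their intervals cover counting error only.

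Other members had more of their counts in MEF. Map2k3os had 1 count in lung and 26 in MEF (ratio of lung to MEF 0.0828, counting interval 0.00202 to 0.504), 24 of them in the treated Trp53-/- library. Runx2 is the transcription factor of bone-forming cells. Runx2os1, facing 519 of its exon bases, had 2 counts in lung and 40 in MEF (ratio of lung to MEF 0.108, counting interval 0.0126 to 0.415), and Runx2os2, in an intron, 17 and 95 (0.385, 0.215 to 0.65). Tnk2os had 10 counts in lung and 86 in MEF, a ratio of 0.25 (0.116 to 0.483), and Lrp8os2 and Wdr83os had ratios of 0.293 (0.0562 to 0.977) and 0.316 (0.0966 to 0.813). The members in these paragraphs were singled out after their values were seen.

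The ratios of members that name the same partner are set side by side here. Rapgef4os1, in an intron, had 93 counts in lung and 204 in MEF, a ratio of CPM of 0.981 (counting interval 0.759 to 1.26), whereas Rapgef4os2 and Rapgef4os3 were at 40.9 and 81.8. Rapgef4os1 had 4 to 74 counts in each MEF library, and the other 2 had at most 2 counts in any of them. The 3 Arhgap27 members were all higher in value in lung, with ratios of 3.06 for Arhgap27os1, 5.85 for Arhgap27os2 and 4.73 for Arhgap27os3. Of the 3 Ube4b members, Ube4bos1 had a ratio of 0.422 (0.34 to 0.52), Ube4bos3 of 0.915 (0.486 to 1.65), and Ube4bos2 had 0 counts in lung and 3 in MEF. Atxn7l1os1 and Atxn7l1os2 were at 2.34 and 2.43. Members of 1 partner share its locus and are not independent measurements.

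By kind of partner, the 27 members opposite partners of a prefix list for developmental transcription factors (Zeb, Sox, Tbx, Pax, Irx and others) had a median of 1.2 counts per kb, and 18 of them had a count. The median was 5.48 for the 249 members with other partners, of which 198 had a count. These are 66.7% of the 27 and 79.5% of the 249, and neither difference was tested. The list goes by the start of the symbol only, so that it takes in Cebpzos and leaves out the Runx2 members and Prox2os. The 4 members opposite Zfp genes had a median of 4.32. Sox5os1, which faces 1330 exon bases of Sox5, a regulator of cartilage development, had 33 counts in MEF and 11 in lung. Its ratio of CPM, lung to MEF, was 0.717, with a counting interval (0.327 to 1.45) that included 1. Irx3os had 12 counts in MEF and 18 in lung, a ratio of 3.23 (1.47 to 7.35). The 10 members annotated as protein-coding genes of their own had a median of 6.26 counts per kb, and among them Zbtb8os (206 counts) and Cebpzos (104 counts) were highest.

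In wild-type MEF the effect of CBL0137 was compared between treated and untreated libraries. No member was called. Of the 28 members tested, 0 passed an adjusted p of 0.05 in edgeR, against 8.48% of all 1757 identifiers tested (4.21% higher and 4.27% lower), and DESeq2 also called 0. At an unadjusted p under 0.05 there were 8 members, 6 higher and 2 lower in value after treatment, against 28.9% of all identifiers. The median log2 fold change of the members tested was 0.22, and that of all identifiers 0.01.

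The member nearest to a call was Sardhos, with 21 and 17 counts untreated and 0 and 8 treated (log2 fold change -2.44, standard error 0.69, edgeR adjusted p = 0.08484). It was called without the filter (adjusted p = 0.02648), with all 10 libraries in the fit (0.04981) and with all reads of the file as library size (0.04583), all by edgeR. In Trp53-/- MEF it had 12 counts untreated and 7 treated, a ratio of CPM of 0.187 (counting interval 0.0623 to 0.514), with no replicate check. Man2c1os, opposite Man2c1, an alpha-mannosidase, and also Sin3a, had 124 and 135 CPM untreated and 59.2 and 72.9 CPM treated (log2 fold change -0.9985, edgeR adjusted p = 0.1488). Notum removes the lipid from Wnt proteins, and Notumos, which faces 344 of its coding bases, had 4 and 1 counts untreated and 6 and 20 treated (log2 fold change 2.19, edgeR adjusted p = 0.1146). Peak1os had 51.0 and 20.8 CPM untreated and 118 and 109 CPM treated (1.61, edgeR adjusted p = 0.1082). The other 4 with an unadjusted p under 0.05 were Fbxl12os, Runx2os2, Fam219aos and Brip1os, with log2 fold changes of 0.45 to 1.51 and edgeR adjusted p of 0.1263 to 0.1642.

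Prss23os, with the highest counts, measured the drug effect most closely. It had 11500 and 11800 CPM untreated and 13800 and 15000 CPM treated in wild-type MEF, a log2 fold change of 0.22 (standard error 0.14, edgeR adjusted p = 0.3533). The treated libraries were both above the untreated ones, but the difference did not pass the test. Phtf1os had 627 and 708 CPM untreated and 621 and 649 CPM treated (-0.16, standard error 0.17, edgeR adjusted p = 0.5971). Junos spread from 59.2 to 211 CPM between the treated libraries, around 94.8 and 67.7 CPM untreated, and showed no separation.

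In lung none of the members approached a call. Of the 41 members tested, 0 had an adjusted p under 0.05 and 0 an unadjusted p under 0.05 in edgeR, against 0% and 3.11% of all 2377 identifiers, and DESeq2 called 0 as well. The largest difference was that of Faddos, opposite the adaptor of death receptors, with 34.9 and 0 CPM in vehicle lung and 71.8 and 65.6 CPM in treated lung (log2 fold change 1.25, standard error 0.82, edgeR adjusted p = 0.9999). Hopxos spread from 845 to 2070 CPM between treated lungs, around 1200 and 1630 CPM with vehicle (0.22, standard error 0.40). The lung comparison rests on vehicle lung library 2, where 3 counts equal 181 CPM, and a member below that level may be listed there at 0.

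**Figure D4:**
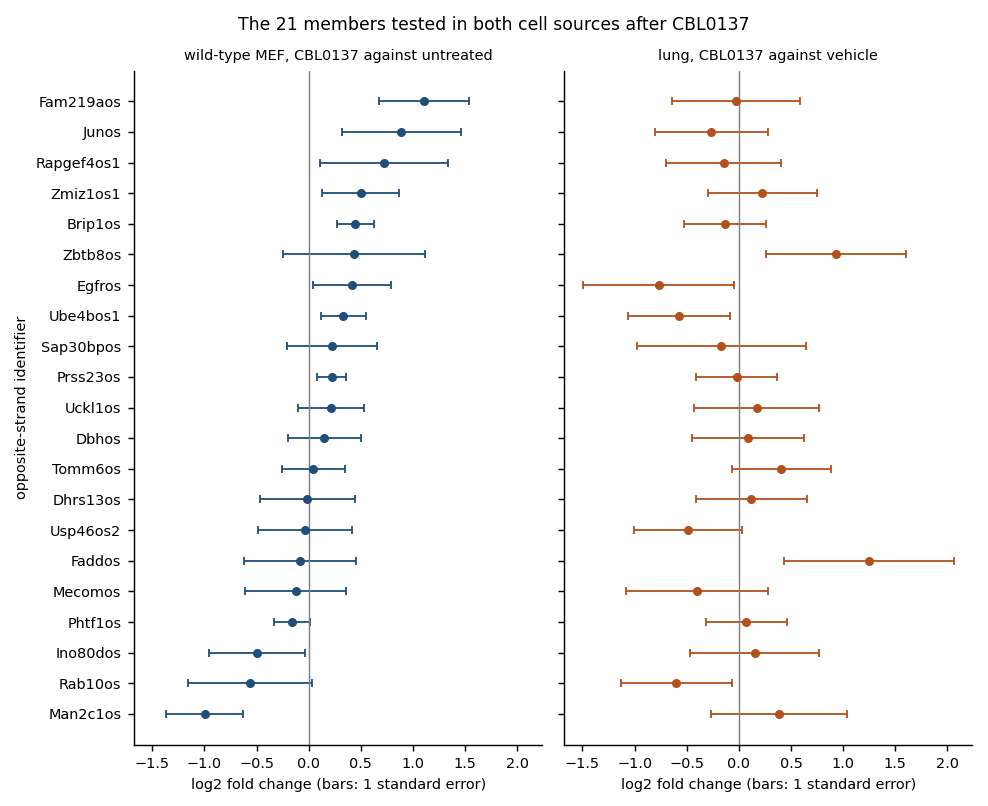
Log2 fold change after CBL0137 (points) with 1 standard error (bars) for the 21 members tested in both wild-type MEF (left) and lung (right). Prss23os has the shortest bar in MEF, 0.22 with a standard error of 0.14, and none of the 21 passed the test in either.

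The difference between the drug effects in lung and in wild-type MEF was tested as an interaction. Of the 49 members tested, 0 were called by edgeR or DESeq2, against 0.276% of all 2899 identifiers by edgeR (0.207% higher and 0.069% lower), and 4 had an unadjusted p under 0.05 in edgeR (8.07% of all identifiers). These were Sardhos (interaction log2 2.73, standard error 1.17, edgeR adjusted p = 0.5712), Peak1os (-2.44), Pitpnm2os1 (-2.94) and Arhgap27os2 (-2.40), the last 3 with edgeR adjusted p of 0.5923 to 0.6057.

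Trp53-/- MEF had 1 library per treatment, so that their values have no replicate check and no test. A member was taken as past the fold when its CPM was at least 2-fold above or below and, against wild-type MEF, outside both wild-type values. Of 54 members with at least 10 counts in the libraries compared, 7 were higher and 5 lower in untreated Trp53-/- than in untreated wild-type MEF, where 9.45% of all 3503 identifiers were higher and 11.3% lower. After CBL0137 in Trp53-/- MEF, 15 of 70 were higher and 6 lower, with 26.1% of all 4980 identifiers higher and 13.3% lower. The treated library held 538717 gene counts and the untreated one 172386, so that an identifier could reach 10 counts through the treated library alone. For several of the 15 members the counting interval included 1, as for Kcnmb4os2 with 17 counts against 1 (ratio of CPM 5.44, 0.852 to 227).

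**Figure D5:**
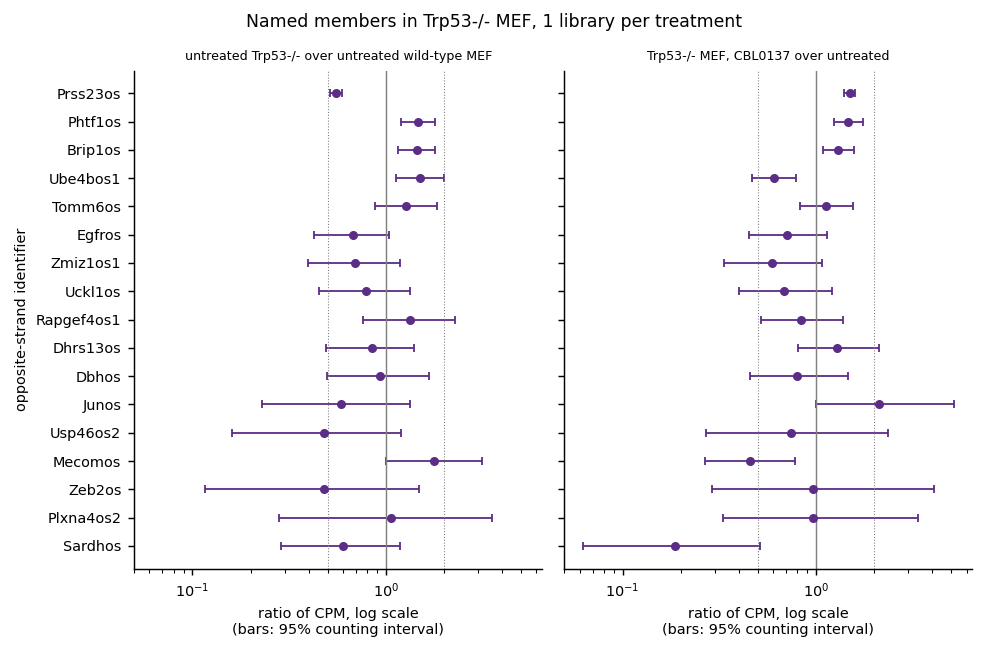
Ratio of CPM on a log scale for 17 named members, untreated Trp53-/- over untreated wild-type MEF (left) and CBL0137 over untreated in Trp53-/- MEF (right). Bars are 95% counting intervals and dotted lines mark a 2-fold difference. Prss23os has the narrowest bars, at 0.553 and 1.5, and Sardhos the lowest ratio after treatment, 0.187.

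Prss23os had 6430 CPM in untreated Trp53-/- MEF against 11500 and 11800 CPM in wild-type MEF, a ratio of 0.553 (counting interval 0.517 to 0.591). With CBL0137 it was at 9630 CPM, a ratio of 1.5 (1.4 to 1.6) to the untreated Trp53-/- library, and the corresponding means in wild-type MEF were 14400 ± 888 (SD, n = 2) and 11600 ± 195 CPM (SD, n = 2). Phtf1os was at 992 CPM untreated and 1450 CPM treated, ratios of 1.47 to wild type and 1.47 for the drug. Brip1os was at 899 and 1170 CPM, ratios of 1.44 and 1.30. Ube4bos1 was at 528 CPM untreated, above both wild-type values of 408 and 313 CPM, and at 319 CPM treated (ratio 0.605, 0.466 to 0.789).

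Among members past the fold in untreated Trp53-/- MEF, Tnk2os had 19 counts against 14 in both wild-type libraries together (ratio 2.59, counting interval 1.23 to 5.58) and Ube4bos3 11 against 5 (4.2, 1.35 to 15.4). Parvaos and Slc7a6os each had 7 counts against 3 (4.45, 1.02 to 26.7). Hopxos, Usp46os2 and Zeb2os were lower in value, each with a ratio of 0.477 and an interval that included 1. None of the 12 had more than 19 counts in the Trp53-/- library.

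After CBL0137 in Trp53-/- MEF, Hectd2os had 101 counts against 12 untreated (ratio of CPM 2.69, counting interval 1.48 to 5.39), and Sap30bpos 46 against 5 (2.94, 1.17 to 9.49). All ratios here are of CPM, because the treated library was the deeper one. Kdm6b removes methyl groups from lysine 27 of histone H3, and Kdm6bos, which faces 286 of its coding bases, had 45 against 6 (2.40, 1.02 to 6.88). Junos had 53 against 8 (2.12, 1.00 to 5.16), where wild-type MEF did not separate. Map2k3os had 24 counts treated and 0 untreated, at least 2.56-fold higher with the untreated library set at 3 counts, and the counting interval of the ratio starts at 1.93. Mecom is a zinc-finger factor of blood stem cells. Mecomos was lower in value, at 68.7 CPM treated and 151 CPM untreated, from 37 against 26 counts (0.455, 0.268 to 0.783). Also lower in value were Sorbs2os, with 6 against 11 counts (0.175, 0.053 to 0.515), and Sardhos, with 7 against 12. In wild-type MEF the log2 fold changes with the drug were -0.66 for Hectd2os, 0.22 for Sap30bpos and -0.12 for Mecomos. None of these passed edgeR's test (adjusted p = 0.376, 0.8208 and 0.9217). The genotypes were not tested against each other in their response to the drug.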

How the data were processed

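Total RNA of 6 MEF and 4 lung libraries was made into strand-specific libraries and sequenced. The authors deposited whole-number counts of reads per gene identifier, not normalized, 1 file per library. TopHat2 2.0.9 and HTSeq, with the GRCm38 build, are credited to the submitters' processing notes. How strand was set in counting, and which annotation release was used, is not given in the sources used here. Rows of the counter that name no gene (98.84% to 99.21% of reads on no feature) stayed out of library sizes and tests.

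Members, partners and their overlaps were taken from GENCODE vM21 (GRCm38), which held 95.13% of the 38293 identifiers. Partner symbols were obtained by removing the ending, and 3 were renamed genes. CPM is per 1000000 gene counts. Counts of all identifiers were fitted with edgeR 4.0.16 in R 4.3.3 (TMM scaling, its expression filter at min.count 10 and min.total.count 15, quasi-likelihood test, Benjamini-Hochberg threshold 0.05), 4 libraries per comparison and 8 for the interaction. In Trp53-/- MEF, ratios carry 95% exact conditional binomial intervals, which cover counting error only, and at least 10 counts were required. Bounds set a group at 0 to 3 counts. edgeR's quasi-likelihood test gives no standard error. Those quoted are the absolute log2 fold change divided by the square root of its F statistic, and are approximate. The fits were tested on simulated data.

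Alternatives were DESeq2 1.42.0, upper quartile scaling, no filter, all 10 libraries in the fit and each library left out. Added after the data were seen were all reads of the file as library size and an overlap of at least 100 bases. Members, gene lists and tests were chosen with earlier results of these data known. Named with every library's value are the 15 members of highest mean CPM and each called member, and others with at least 10 counts are given in part. Tables and intervals used Python 3.11.15, pandas 2.3.3 and SciPy 1.17.1.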

Additional observations from a re-analysis of the deposited data

Results flagged for a closer look

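The values of Ube4bos1 after CBL0137 were higher in wild-type MEF and lower in lung, and neither difference passed edgeR's test (adjusted p = 0.3643 and 0.9999). Both treated wild-type MEF libraries (459 and 496 CPM) were above both untreated ones (408 and 313 CPM), and both treated lungs (127 and 148 CPM) were below both vehicle lungs (219 and 241 CPM). The log2 ratios of the group means differed by 1.15. The pattern was picked by the order of the libraries and was not itself tested. In the fit over all identifiers the interaction was -0.91 on the log2 scale (standard error 0.50, edgeR adjusted p = 0.6872), which did not pass the threshold. The shallow vehicle lung library contributed only 4 counts to it. In Trp53-/- MEF, with 1 library per treatment, the value was lower after CBL0137, 319 against 528 CPM (ratio 0.605, counting interval 0.466 to 0.789).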

How the results depend on the processing

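No paired analysis was possible because the labels carry no replicate numbers and the numbers used here only name the libraries. In wild-type MEF the count of members called after CBL0137, 0 by the test reported, was 2 without the filter, 1 with all 10 libraries in the fit and 4 with all reads of the file as library size, and 0 to 0 with 1 library left out. Between vehicle lung and untreated wild-type MEF, 8 became 2 with DESeq2, 15 with all reads as library size, and 2 to 10 with 1 library left out. The 2 came without vehicle lung library 1. Lung after CBL0137 and the interaction gave 0 members under every alternative run, and 0 to 0 with 1 library left out. With all reads as library size, 14 members in place of 12 were past the fold in untreated Trp53-/- MEF and 28 in place of 21 after CBL0137. Over all identifiers, DESeq2 called 51 in place of 149 in wild-type MEF and 242 in place of 701 between tissues. With 1 library left out, the calls over all identifiers ranged from 0 to 254 in wild-type MEF, where leaving out either untreated library left 2 and 0, from 1 to 113 in lung, the 113 without treated lung library 2, from 87 to 661 between tissues, and from 2 to 23 for the interaction. Of the values of single named members, 109 kept their side of the threshold, 28 lost the call, 5 gained it and 0 changed sign. In the tissue comparison Usp46os2 and Zeb2os each lost the call under 7 of 9 alternatives, Junos under 6, Sardhos under 4, Egfros under 3 and Plxna4os2 under 1 of 8. The cause of these changes was not tested. Depth limits all comparisons with vehicle lung library 2, where 3 counts equal 181 CPM.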

Other observations

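Map2k3os lies outside its partner and had 24 of its 27 counts in the treated Trp53-/- library. Grin1os, which faces 1184 coding bases of Grin1, a subunit of the NMDA glutamate receptor, had 7 of its 14 counts in the untreated Trp53-/- library and 0 in the treated one. Ppp2r2cos had 3 and 12 counts in treated wild-type MEF and 0 in both untreated libraries and in both Trp53-/- libraries. All 3 were picked after their values were seen, and none was tested in the fits with the filter on low counts. Without the filter, edgeR called Ppp2r2cos in wild-type MEF after CBL0137, and DESeq2 did not.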
